A study of Mus musculus with 4 samples.

Results

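The transforming growth factor beta (TGF-beta) and bone morphogenetic protein (BMP) family was followed in CD45-negative cells of mouse lymph nodes, as 36 genes chosen by name: 17 ligands, 9 receptors, 6 extracellular antagonists and 4 latent binding proteins. All 36 had at least 1 probe on the array, 52 probes in all. A probe entered when 1 node or the other had both of its arrays well above background, as was so for 47 of the 52. That left 35 of 36 members among 21392 genes tested. The exception was Bmpr1b, a type I BMP receptor, whose only probe was not well above background on any array.

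The mesenteric lymph node (mLN) receives lymph from the intestine, and its cells were compared with those of the peripheral lymph node (pLN). Both came from wild-type C57BL/6NCrl mice, and the nodes were digested with collagenase before leukocytes, which carry CD45, were removed with magnetic beads, to a stated mean purity of 97.4% (mLN) and 97.5% (pLN). Each node was taken in 2 experiments, which gave 4 arrays of 1 colour, 2 per node, all on 1 slide. Age, sex, the number of animals and the peripheral sites taken are not given in the sources used here. Whether the experiments drew on different animals is not stated, so the p-values cover only the spread between these samples, which may be technical. These are mixed cells, and more cells of a type cannot be told apart from more RNA per cell.

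Ligands of this family are secreted dimers that bind pairs of type I and type II receptor kinases, which phosphorylate Smad proteins. TGF-beta itself is stored in the matrix as a latent complex with a latent binding protein, whereas BMPs and activins are held in check by soluble antagonists such as noggin, gremlin and follistatin. In lymph nodes the family is known for its part in stromal differentiation and in immune regulation by TGF-beta. BMP ligands and their antagonists also pattern the mesoderm from which visceral and body wall tissues derive.

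Most members were measured by a single oligonucleotide of 60 bases, so the value of a gene is the value of a short stretch of its transcript. For 4 members the oligos, which lie over coding sequence, are shown whole because their genes carry opposed differences described below, 5′ to 3′ and in lower case. Positions are those of the files, on the mm8 assembly. The Bmp4 oligo maps to chr14:45306004-45306063 on the minus strand, that of Tgfb1 to chr7:25413618-25413677 on the plus strand, that of Inhba to chr13:15817688-15817747 on the plus strand and that of Nog to chr11:89117625-89117684 on the minus strand.
Bmp4: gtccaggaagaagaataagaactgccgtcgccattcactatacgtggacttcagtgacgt
Tgfb1: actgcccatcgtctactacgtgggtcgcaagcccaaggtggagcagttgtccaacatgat
Inhba: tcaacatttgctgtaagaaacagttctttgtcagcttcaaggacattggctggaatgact
Nog: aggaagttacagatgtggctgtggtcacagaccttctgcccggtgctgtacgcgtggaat

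For the members with the largest positive differences the first 30 bases of the oligo are shown. The files do not say which part of the transcript these cover. They map to chr4:9789396-9789455 (Gdf6, plus strand), chr9:75684546-75684605 (Bmp5, plus strand), chr2:172512641-172512700 (Bmp7, minus strand) and chr2:113549909-113549968 (Grem1, minus strand).
Gdf6: ctaaagttactggaggtcgattgatataca
Bmp5: ataaaaagcaggggaatggggaatttccta
Bmp7: gctggcgtctgtgttgaagggaaaccaagc
Grem1: tcctaaattaattcacttgaccgcgggtgt

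The comparison asked which members differ between the nodes. Gdf6, a BMP-type ligand of joint and axial skeleton development, was the only member called, 4.90-fold higher in mLN. Bmp5 and Bmp7, a pair of related BMP ligands, had differences of 2.49-fold and 3.85-fold toward mLN that did not pass. Among antagonists, Grem1 had a higher mean in mLN and Nog a higher mean in pLN, again without passing. The receptors and the latent binding proteins all differed by less than 2-fold. In the whole comparison, 1.05% of 21392 genes were called at an adjusted p of 0.05 (limma, Benjamini-Hochberg over all genes), 0.776% higher in mLN and 0.276% lower, beside 1 of 35 members higher and none lower. At an unadjusted p under 0.05 there were 6 members higher and 3 lower in mLN, against a background of 7.8% higher and 6.88% lower. In simulated data of the same size a log2 change of 1 was called in 0% of 100 genes and a log2 change of 3 in 67% of 100. The simulation used independent noise, spreads shuffled among genes and no effect of the experiment. These shares are thus not detection rates for the members themselves. A member that was not called is not thereby shown to be equal.

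**Figure D1:**
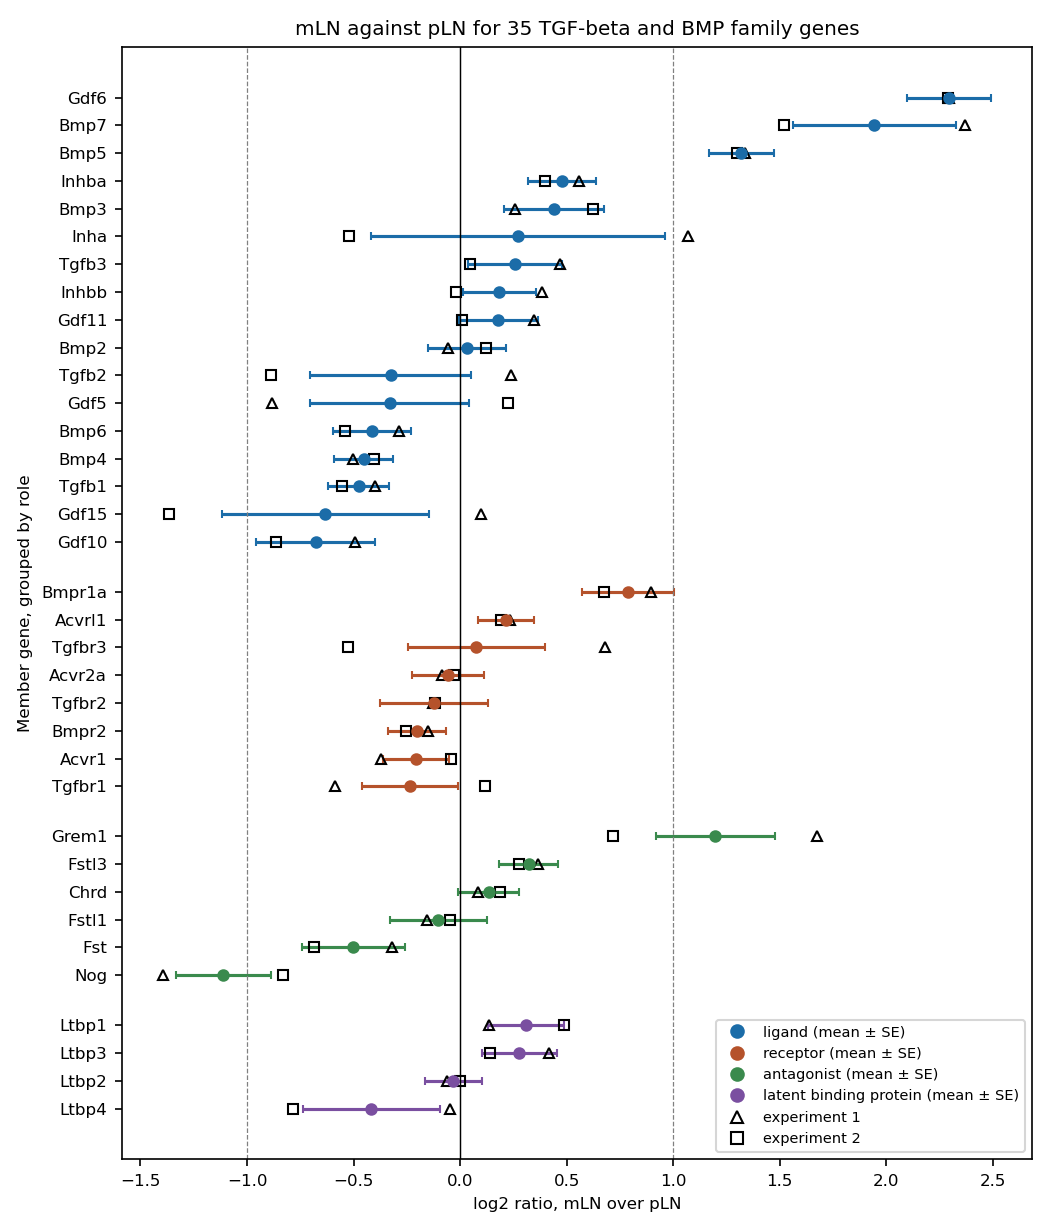
Log2 ratio of mLN over pLN (horizontal axis) for the 35 tested members, grouped by role, with the mean and its standard error as filled points and bars and the ratio within each experiment as open symbols; dashed lines mark 2-fold. Gdf6, Bmp7 and Bmp5 lie beyond the 2-fold line in both experiments, while the receptors and latent binding proteins lie within 1 log2 unit.

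Levels are given below as log2 signal relative to each array's 75th percentile, so that 0 is the level that 75% of probes do not exceed. They compare 1 gene across arrays and not 1 gene with another. All 35 tested members were well above background on all 4 arrays, and none had a saturated probe, so each fold is a measured value and not a bound. Several dim members still moved with the background method. With a normexp background the log2 difference of Inha went from 0.27 to 1.44, of Gdf11 from 0.18 to 1.19 and of Chrd from 0.13 to 0.78. Gdf6, also dim, had 2.29 and 2.25, while the median of all genes tested moved from −0.033 to 0.38.

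Among the BMP ligands, Gdf6 had levels of −4.60 and −4.90 on the pLN arrays and −2.31 and −2.61 on the mLN arrays, in the order of experiments 1 and 2. The nodes did not overlap, and the ratio was nearly the same in both experiments (4.91-fold and 4.90-fold). The log2 difference was 2.29 ± 0.20 (SE, n = 2 per node, limma adjusted p = 0.0277). Leaving out any 1 of the 4 arrays ended the call, with differences from 2.14 to 2.45 and adjusted p from 0.0541 to 0.19. The call also ended with a normexp background (2.25, adjusted p = 0.689) and with no filter on dim probes (2.29, adjusted p = 0.0869).

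Bmp5 had −3.67 and −3.81 in pLN and −2.33 and −2.51 in mLN. Both mLN arrays lay above both pLN arrays, by 2.52-fold in experiment 1 and 2.46-fold in experiment 2. The difference of 1.32 ± 0.15 narrowly missed the threshold (adjusted p = 0.053, limma). It passed under 5 of the alternative settings, among them median scaling (0.0369) and the deposited value table (0.0462). It did not pass under the other 8, which were the mean of probes (1.14, adjusted p = 0.105), no filter on dim probes (0.14), a normexp background (0.689), the replicate block (0.0572) and each array left out in turn (0.0944 to 0.269).

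Bmp7, known for its roles in kidney development and in opposing fibrosis, had −3.94 and −4.13 in pLN and −1.57 and −2.61 in mLN. The mLN arrays were both higher but lay further from each other than the pLN arrays did. The ratio was 5.17-fold in experiment 1 and 2.86-fold in experiment 2, a difference of 1.94 ± 0.38 (adjusted p = 0.134, limma). Without mLN replicate 2 the difference was 2.46 and passed (adjusted p = 0.0449). Without mLN replicate 1 it was 1.42 and did not pass (adjusted p = 0.0942), nor did it without either pLN array (adjusted p = 0.457 and 0.412).

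Bmp4, a ligand of mesenchyme with broad roles in organ formation, had 1.84 and 1.87 in pLN and 1.34 and 1.46 in mLN. The pLN arrays were higher in both experiments, with a difference of −0.45 ± 0.14 (adjusted p = 0.263, limma). Bmp2, its closest relative, had 0.62 and 0.28 in pLN and 0.56 and 0.40 in mLN. These overlapped, and the difference of 0.032 ± 0.18 had a 95% interval from −0.46 to 0.53, which leaves room for changes of about that size either way.

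Bmp6 had −0.27 and −0.37 in pLN and −0.56 and −0.92 in mLN, a difference of −0.42 ± 0.18 (adjusted p = 0.42, limma). It is opposite in sign to that of its close relative Bmp5. Both genes had a further probe whose ends lie 11393 bases (Bmp5, chr9:75614068-75625461, plus strand) and 15143 bases (Bmp6, chr13:38477222-38492365, plus strand) apart on mm8, so that each spans an intron. Printed with the bases they share in capitals, they are alike in 34 of 59 aligned bases without a gap, which shows how far the oligos of these relatives differ.
Bmp5: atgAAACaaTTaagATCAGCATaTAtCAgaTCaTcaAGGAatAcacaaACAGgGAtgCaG
Bmp6: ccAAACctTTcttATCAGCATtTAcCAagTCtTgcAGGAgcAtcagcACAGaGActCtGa
On these oligos, which were not the ones tested, the log2 difference was 0.96 for Bmp5 and −0.77 for Bmp6, with the signs opposed as before. The other Bmp5 probe was not well above background on any array, and the files place it on the minus strand, opposite to the other 2.

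Bmp3, a BMP that antagonises osteogenic signalling, had −0.87 and −0.69 in pLN and −0.61 and −0.065 in mLN, a difference of 0.44 ± 0.24 (adjusted p = 0.506, limma). Gdf10, its closest relative, had 4.03 and 3.74 in pLN and 3.53 and 2.88 in mLN, and its difference was −0.68 ± 0.28 (adjusted p = 0.383). Each of these relatives kept its sign in both experiments, and the signs were opposed, but their sizes moved with the arrays used. Leaving out 1 array at a time gave 0.17 to 0.71 for Bmp3 and −1.01 to −0.35 for Gdf10. Gdf5, the joint ligand closest to Gdf6, had −2.69 and −2.78 in pLN and −3.58 and −2.55 in mLN. It was lower in mLN in experiment 1 and higher in experiment 2, and the difference was −0.33 ± 0.37 (adjusted p = 0.78). Gdf11, a ligand of axial patterning, had 0.18 ± 0.19 (adjusted p = 0.756). Gdf15, a stress-induced ligand, stood at −0.95 and 0.42 in pLN and at −0.85 and −0.94 in mLN, with 1 pLN array above the other 3 and a difference of −0.63 ± 0.49 (adjusted p = 0.654).

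Of the TGF-beta ligands, Tgfb1, the main immune regulatory form, had 0.61 and 0.75 in pLN and 0.21 and 0.20 in mLN. The pLN arrays lay above the mLN arrays, by 1.32-fold and 1.47-fold in the 2 experiments, and the difference was −0.48 ± 0.14 (adjusted p = 0.246, limma). Tgfb2 had 0.56 and 0.65 in pLN and 0.80 and −0.24 in mLN, where the arrays disagreed, with a difference of −0.33 ± 0.38 (adjusted p = 0.785). Tgfb3 had 2.37 and 2.28 in pLN and 2.84 and 2.33 in mLN, a difference of 0.26 ± 0.22 (adjusted p = 0.691). The 3 isoforms thus had means of different sign, none of which passed.

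The activin and inhibin subunits were also measured. Inhba, the subunit of activin A, had −2.16 and −2.24 in pLN and −1.60 and −1.85 in mLN, without overlap, and its difference was 0.48 ± 0.16 (adjusted p = 0.296, limma). Inhbb, the subunit of activin B, had 0.18 ± 0.17 on its tested probe (adjusted p = 0.724) and −0.60 on its other probe, so that its direction depends on the oligo. Inha, the inhibin alpha subunit, ran from −6.51 to −4.55 between the pLN arrays alone and had 0.27 ± 0.69 (95% interval −1.58 to 2.13), the widest interval of any member.

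**Figure D2:**
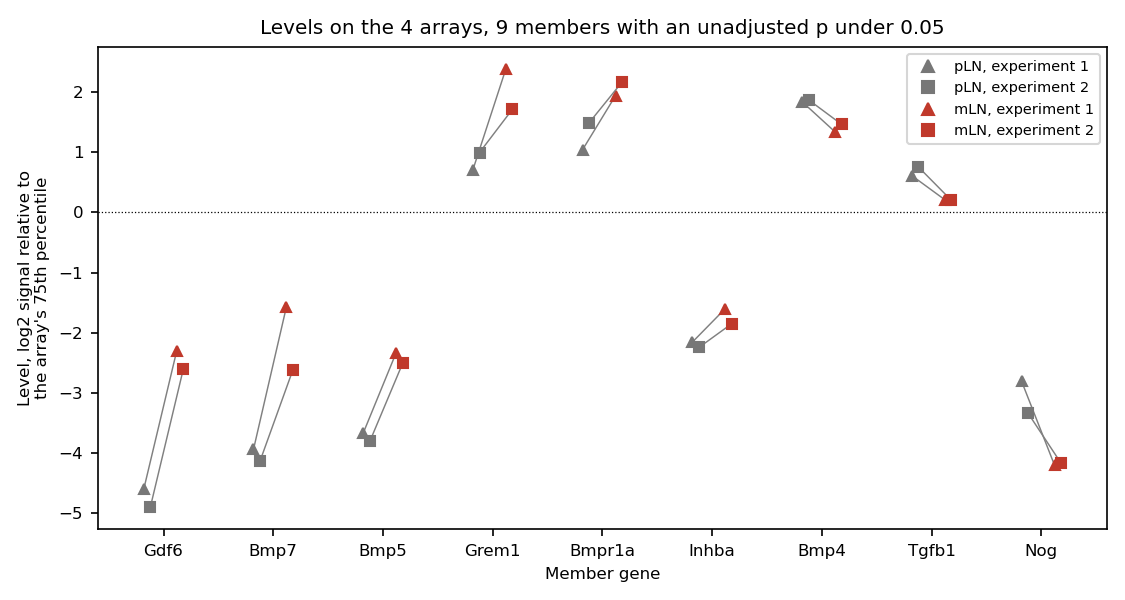
Log2 signal relative to the array's 75th percentile (vertical axis) on each of the 4 arrays for the 9 members with an unadjusted p under 0.05, with lines joining the nodes of 1 experiment. In all 9 genes both mLN arrays lie on the same side of both pLN arrays, as the selection by p favours, with Gdf6, Bmp7, Bmp5, Grem1, Bmpr1a and Inhba higher in mLN and Bmp4, Tgfb1 and Nog lower.

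For 4 ligands a probe was printed 10 times on each array, which shows the error of the array itself apart from that of the samples. For Bmp4 the spots of pLN ran from 1.75 to 1.93 in experiment 1 and from 1.80 to 1.93 in experiment 2, and those of mLN from 1.28 to 1.41 and from 1.37 to 1.56. No spot of one node reached the range of the other. For Tgfb1 the spots ran from 0.56 to 0.66 and from 0.72 to 0.80 in pLN and from 0.17 to 0.29 and from 0.14 to 0.26 in mLN, again apart. For Bmp2 the spots of pLN in experiment 1 (0.57 to 0.68) lay above those of pLN in experiment 2 (0.18 to 0.37), a gap within 1 node that exceeded the difference between the nodes.

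The repeated Bmp7 probe was the second of its 2 probes and not the one tested. Its spots ran from −4.21 to −3.91 and from −4.53 to −4.26 in pLN, and from −2.17 to −2.02 and from −3.01 to −2.88 in mLN, which gave a difference of 1.73 beside 1.94 on the tested probe. The standard deviation between spots of an array was 0.028 to 0.095 on the log2 scale over these 4 genes. Spots of 1 array share a sample, so they are no replicates of a node.

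**Figure D3:**
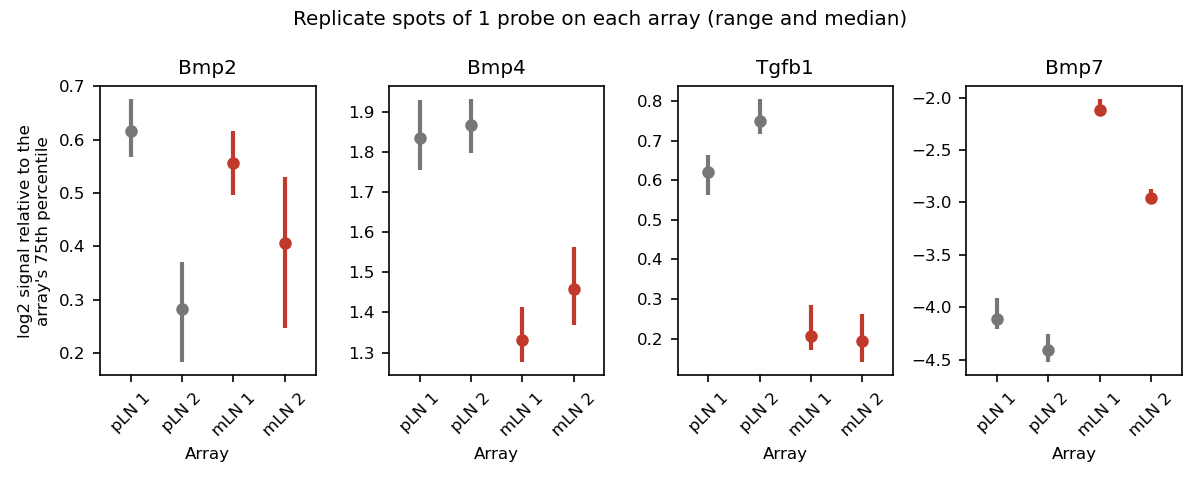
Log2 signal relative to the array's 75th percentile (vertical axes, each with its own range) of the spots of 1 probe on each array for Bmp2, Bmp4, Tgfb1 and Bmp7, with the median as a point and the lowest to highest spot as a line. Spots of Bmp4, Tgfb1 and Bmp7 separate by node, whereas those of Bmp2 separate the pLN arrays from each other.

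Among the receptors, Bmpr1a, a type I receptor for BMPs, had 1.05 and 1.49 in pLN and 1.94 and 2.17 in mLN. The nodes did not overlap, the ratio was 1.86-fold in experiment 1 and 1.60-fold in experiment 2, and the difference was 0.79 ± 0.22 (adjusted p = 0.218, limma). Its second probe gave 0.53. Bmpr2, the type II BMP receptor, had −0.20 ± 0.14, and its 3 probes gave values from −0.22 to −0.19. Acvr1, a type I receptor for BMPs and activins, had −0.21 ± 0.15, and Acvr2a, a type II activin receptor, −0.057 ± 0.17. Acvrl1, a type I receptor of endothelium, had 0.21 ± 0.13. Adjusted p-values of these 4 ran from 0.573 to 0.931.

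The TGF-beta receptors had small differences. Tgfbr2, the type II receptor, had 4.80 and 4.34 in pLN and 4.67 and 4.22 in mLN, which overlapped, and its 3 probes gave −0.12, −0.11 and −0.07. Tgfbr1, the type I receptor, had −0.24 ± 0.23 and Tgfbr3, the co-receptor betaglycan, 0.076 ± 0.32. The ratio of Tgfbr3 was 1.60-fold toward mLN in experiment 1 and 1.44-fold toward pLN in experiment 2. The 95% intervals were −0.80 to 0.56 for Tgfbr2, −0.84 to 0.37 for Tgfbr1 and −0.79 to 0.94 for Tgfbr3, each within 2-fold either way.

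Of the antagonists, Grem1, which encodes gremlin and binds BMP2, BMP4 and BMP7, had 0.71 and 1.00 in pLN and 2.38 and 1.71 in mLN. The ratio was 3.19-fold in experiment 1 and 1.65-fold in experiment 2, and the difference was 1.20 ± 0.28 (adjusted p = 0.17, limma). Nog, which encodes noggin, had −2.81 and −3.34 in pLN and −4.20 and −4.17 in mLN, and so ran the other way, with a ratio of 2.63-fold and 1.78-fold toward pLN and a difference of −1.11 ± 0.22 (adjusted p = 0.137). With a normexp background, under which the median of all genes moved from −0.033 to 0.38, Nog turned to 0.50. Neither antagonist overlapped between the nodes, as was so for 20 of the 35 members, 12 higher and 8 lower in mLN, and for 45.6% of all genes tested (20.6% higher and 25% lower).

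Chrd, which encodes chordin, had 0.13 ± 0.14. Fst, which encodes the activin antagonist follistatin, had 0.51 and 0.32 in pLN and 0.20 and −0.37 in mLN, and its difference was −0.50 ± 0.24 (adjusted p = 0.46, limma). Fstl3, a follistatin relative that also binds activin, had 0.32 ± 0.14, and Fstl1, a more distant relative of follistatin, −0.10 ± 0.23. Follistatin and its relative Fstl3 thus had means of opposite sign without either passing.

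The latent binding proteins held no tested difference beyond 0.42 in size. Ltbp1 had 0.31 ± 0.18 on its tested probe and −0.26 on its other probe so its direction depends on the oligo. Ltbp3 had 0.28 ± 0.18 and 0.20 on its 2 probes. Ltbp2 had −0.033 ± 0.13, with a 95% interval of −0.39 to 0.33. Ltbp4 had 5.21 and 5.09 in pLN and 5.17 and 4.31 in mLN, a difference of −0.42 ± 0.32 (adjusted p = 0.657, limma). Without mLN replicate 2 the log2 difference was 0.013. More than 1 probe entered for 10 members, and for 8 of them the probes shared a sign.

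By class, the median log2 difference was 0.18 over 17 ligands, −0.089 over 8 receptors, 0.015 over 6 antagonists and 0.12 over 4 latent binding proteins. It was 0.032 over all 35 members and −0.033 over all genes tested. With a normexp background these medians were −0.002 and 0.38, so the members' median then lay below that of all genes. The median size without regard to sign was 0.44 for ligands, 0.20 for receptors, 0.41 for antagonists and 0.29 for latent binding proteins, beside 0.19 for all genes tested. Both experiments gave ratios of 2-fold or more in 1 direction for 3 members, all ligands and all higher in mLN, and for 4.45% of all genes tested (2.75% higher and 1.71% lower). Ratios had opposite signs in the 2 experiments for 8 of the 35.

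**Figure D4:**
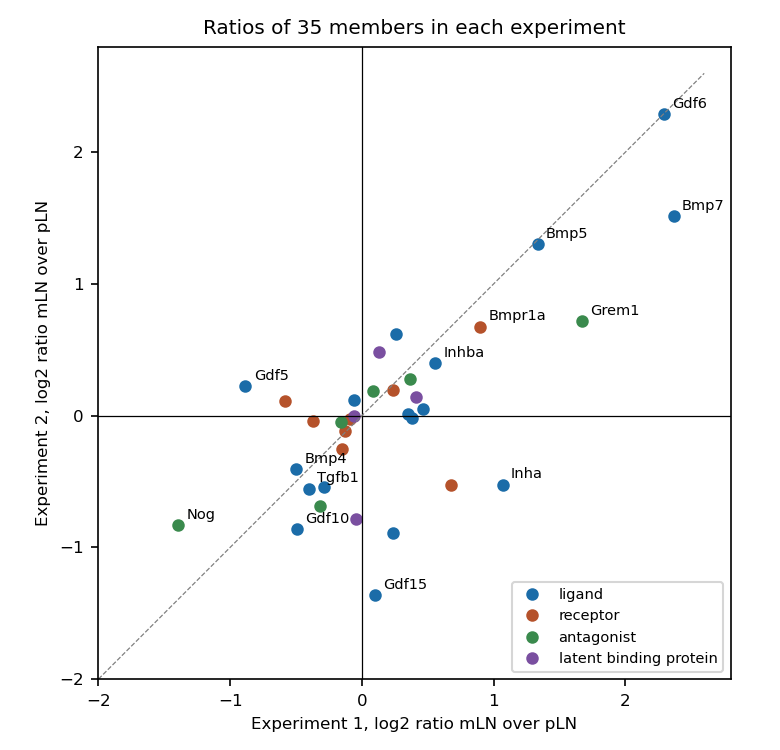
Log2 ratio of mLN over pLN in experiment 1 (horizontal axis) and experiment 2 (vertical axis) for the 35 tested members, coloured by role, with the dashed line marking equal ratios. Gdf6 and Bmp5 lie on the line, Bmp7 and Grem1 have the larger ratio in experiment 1, and Inha and Gdf15 have opposite signs in the 2 experiments.

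Other genes of the pathway were read from lists. None of them was called, by limma, in either direction, and the genes with the smallest p are given for each list. At an unadjusted p under 0.05 (limma), 7.8% of all genes tested were higher in mLN and 6.88% lower. Of 15 further antagonists tested, 5 were higher and 1 lower in mLN at this threshold. Sostdc1, an antagonist of BMP and Wnt signalling, had 1.65 and 2.31 in pLN and 0.08 and 0.34 in mLN, a difference of −1.77 ± 0.27 (adjusted p = 0.0954, limma). Nbl1, a BMP antagonist related to gremlin, had 3.06 and 2.81 in pLN and 4.52 and 3.69 in mLN (1.17 ± 0.32, adjusted p = 0.224). Chrdl2, a chordin relative, was dim on the pLN arrays, neither of them well above background. It was at least 2.42-fold higher in mLN as a bound. Its measured log2 difference was 2.36 (adjusted p = 0.199, limma).

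Of 10 further receptors and co-receptors, 1 was higher and 1 lower at an unadjusted p under 0.05. Amhr2, the receptor of anti-Mullerian hormone, had −6.13 and −6.14 in pLN and −3.69 and −4.60 in mLN, a difference of 2.00 ± 0.34 (adjusted p = 0.108, limma). Hjv, the BMP co-receptor hemojuvelin, had −0.95 ± 0.30 (1.00 with a normexp background), and Bambi, a pseudoreceptor, −0.47 ± 0.23. Of 16 genes of the latent complex and its activation, 6 were higher and 1 lower at an unadjusted p under 0.05 (limma). The shares over all genes tested were 7.8% higher and 6.88% lower. The median of the 16 was 0.42, beside −0.033 for all genes tested. Pcsk6, a proprotein convertase that processes ligands of the family, had 0.69 and 0.43 in pLN and 2.99 and 1.83 in mLN (1.85 ± 0.43, adjusted p = 0.168). Itgb8, a subunit of an integrin that activates latent TGF-beta, had 1.19 ± 0.26 (adjusted p = 0.158), and Itgb5 0.57 ± 0.15 (0.203).

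Of 11 further ligands, 0 had an unadjusted p under 0.05, the values with the smallest p being 0.29 ± 0.14 for Inhbc, 0.26 ± 0.15 for Lefty1 and 0.18 ± 0.15 for Gdf9. Of 14 Smads and regulators, 12 had negative values, as did 11914 of all 21392 genes tested, and 2 of the 12 had an unadjusted p under 0.05. Their median was −0.12, beside −0.033 for all genes tested. The median size without regard to sign was 0.13, beside 0.19 for all genes tested. The lowest p belonged to Tgif1, a corepressor (−0.59 ± 0.16), and Smad1, a BMP-activated Smad (−0.46 ± 0.17, adjusted p = 0.218 and 0.324, limma), followed by Smad5 (−0.31 ± 0.15). Among 13 genes known as BMP targets 0 had an unadjusted p under 0.05. Atoh8 had 0.57 ± 0.23 and Dlx5 −0.59 ± 0.25, while Id1 and Id3, the usual readouts of BMP signalling, had −0.096 and 0.026. Msx2 was well above background on 1 of 2 mLN arrays, so its mean there is a bound, at least 2.39-fold lower than the pLN mean. Its ratios were −0.043 and −2.61 in the 2 experiments, and it was not called (adjusted p = 0.453, limma). The negative values of Dlx5 and Msx2 turned positive with a normexp background (1.34 and 1.19).

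Among 16 genes known as TGF-beta targets 4 were higher and 1 lower at an unadjusted p under 0.05 (limma), beside 7.8% and 6.88% of all genes tested. The higher ones were Cdkn2b (0.67 ± 0.13), Tagln (0.70 ± 0.19), Postn (0.61 ± 0.16) and Acta2 (0.59 ± 0.16), with adjusted p from 0.137 to 0.213 (limma). Tagln and Acta2 also mark smooth muscle.

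Markers of other cells that the samples could hold moved with the node. Of 13 mesothelium markers 9 were called higher in mLN, with a median of 4.61. Their summed level, on the same log2 scale, ranged from 5.11 to 5.18 in pLN and from 6.13 to 6.54 in mLN. Such sums, here and below, are ruled by their brightest probes and do not measure cell content. The defining mesothelial genes Wt1 and Bnc1 had no pLN array well above background. All 12 pancreatic acinar markers tested had mLN ratios of 2-fold or more in each experiment and 1 was called, and their summed level was 0.75 to 4.56 in pLN and 8.66 to 10.12 in mLN. Markers of surface and glandular epithelium were mostly lower in mLN, with 3 of 13 called lower and 1 higher. Their summed levels were 2.82 to 3.88 in pLN and 2.04 to 2.19 in mLN. With a normexp background Cdh1 (0.069), Krt15 (0.075), Wap (0.88) and Lalba (1.42) turned positive. Csn3 (−4.37), Wfdc2 (−3.21), Elf5 (−0.52), Krt5 (−0.28) and Trp63 (−0.11) stayed negative. The part of mesothelial, acinar and epithelial cells in the values of Gdf6, Bmp5, Bmp7, Grem1, Nog and Amhr2 was not tested.

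Among markers of cells that both nodes hold, calls were few. Of 12 markers of fibroblastic reticular cells, 12 of blood endothelium, 7 of lymphatic endothelium, 9 of smooth muscle and pericytes and 12 of leukocytes, none was called, with medians of 0.037, −0.50, −0.62, 0.35 and 0.18. Summed levels for fibroblastic reticular cells were 9.88 to 10.01 in pLN and 10.02 to 10.19 in mLN. For leukocytes they were 3.48 to 3.94 and 3.45 to 3.51, and for lymphatic endothelium 5.40 to 5.78 and 5.23 to 5.87. Those of blood endothelium were lower in mLN (8.55 to 8.65 in pLN, 7.88 to 8.50 in mLN). Those of smooth muscle and pericytes were higher in mLN (6.79 to 7.06 in pLN, 7.46 to 7.47 in mLN). Adipocyte markers had a median of −0.41 over 8 genes with none called, but they spread from −3.76 to 1.82, and each experiment gave 2-fold or more in 1 direction for 3 of the 8 (Plin1 higher, Cidea and Cfd lower). Nerve markers had a median of −0.062 over 8 genes with 1 called, and each experiment gave 2-fold or more for 2 of the 8, both higher in mLN, beside 4.45% of all genes tested with such ratios in either direction. Ptprc, which encodes CD45 itself, had 0.059.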

How the data were processed

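The authors' intensity values came from Agilent Feature Extraction 9.5.3.1 (named in the submitters' processing notes). Per the file headers, the background had been subtracted and trends removed per spot. Other deposited columns are 0 or 1 flags that mark spots well above background, saturated or outlying. Above its lowest value of 15, the deposited value table equals the scanner signals times 1 factor per array, found by comparison. Its 75th percentile was 1500 on each array, so its scaling is that of the main fit. It served as an alternative.

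Control and outlier spots were left out, spots of a probe averaged, log2 taken and each array's 75th percentile (1686 to 1741) subtracted. Between 74.0% and 81.1% of 41174 probes were well above background. Probes were named through RefSeq genes on GRCm38, and a gene takes the brightest of its entering probes. Probe oligos and positions are from the files. Differences were tested with limma 3.58.1 in R 4.3.3 (lmFit, eBayes, total degrees of freedom 4.35) on 2 mLN against 2 pLN arrays. The smallest p of an exact permutation test would be 0.333. Same-numbered samples share an experiment by their labels. The change between experiments in mLN correlated with that in pLN (r = 0.246 across genes), and a fit with the experiment as a block was run too. Values after ± are standard errors. The fit was tested on simulated data. All arrays lay on 1 slide with 1 scan.

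Members and lists were chosen with earlier results of these data known. Values on all 4 arrays were due for members with an unadjusted p under 0.05 or a ratio of at least 2-fold in both experiments, and up to 3 genes with the smallest p per other list.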

Additional observations from a re-analysis of the deposited data

How the results depend on the processing

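The count of genes called was 225, and became 441 with a variance trend on intensity, 354 with median scaling, 44 without a filter on dim probes, 0 with a normexp background (569 at an unadjusted p under 0.05) and 0 to 190 with 1 array left out. The count of members called was 1 and rose to 2, with Bmp5 added to Gdf6, under median scaling, quantile normalization, the deposited value table, the intensity trend, and where all 4 arrays had to be well above background. It was 0 with a normexp background (3 at an unadjusted p under 0.05) and without a filter on dim probes (8), and 0 to 1 with 1 array left out (5 to 12). Without either pLN array no gene of the whole comparison was called. With mLN replicate 2 left out the called member was Bmp7. With the experiment as a replicate block the counts were 333 genes and 1 member, and this changed no call of a member. The median difference of the members stayed between −0.033 and 0.113, and the count with 2-fold ratios in both experiments was 2 or 3. The median of all genes did not stay: it was −0.033 in the main fit, below the members' 0.032. With a normexp background it was 0.38, above the members' −0.002. Of 455 values of single members under alternatives, 24 turned sign, all of members that were not called. With a normexp background, which moved the median of all genes to 0.38, these were Bmp2 (−0.069), Gdf5 (0.64), Tgfb3 (−0.002), Acvrl1 (−0.061) and Nog (0.50), and with the mean of probes Inhbb (−0.21). With 1 array left out the ranges were −0.138 to 0.202 for Bmp2, −0.84 to 0.18 for Gdf5, −0.014 to 0.37 for Gdf11, −1.32 to 0.056 for Gdf15, −0.71 to 1.25 for Inha, −0.85 to 0.20 for Tgfb2, −0.49 to 0.017 for Tgfbr1, −0.35 to 0.11 for Tgfbr2, −0.28 to 0.43 for Tgfbr3, −0.18 to 0.064 for Acvr2a, −0.32 to 0.12 for Fstl1, −0.067 to 0.002 for Ltbp2 and −0.85 to 0.013 for Ltbp4. The cause was not tested. With 2 arrays per node, small differences lie within the error.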
